A study of Mus musculus with 4 samples.

Results

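Neurexins, neuroligins and leucine-rich repeat transmembrane proteins (LRRTMs) are the cell adhesion molecules that hold the presynaptic and postsynaptic sides of a synapse together, and 9 of their genes were followed here in the prefrontal cortex (PFC) of mice with knockdown of *Ash1L*. They were chosen by name, as members of these gene families, with earlier results of these data known. The members are *Nrxn2* and *Nrxn3*, the neuroligins *Nlgn1*, *Nlgn2* and *Nlgn3*, and *Lrrtm1*, *Lrrtm2*, *Lrrtm3* and *Lrrtm4*. These are 9 of the 23420 gene symbols in the count files. All 9 passed the filter on low counts. The files came from 4 samples of C57BL6/J mice, 2 with PFC injected with an *Ash1L* shRNA AAV9 and 2 with PFC injected with a GFP AAV9 (control), and the series description gives an age of 6 to 8 weeks. In both groups the virus went to the medial PFC on both sides of the brain and carried GFP, and the short hairpin was expressed from a U6 promoter, which is active in any cell type the virus enters. The methods name the control virus a scrambled shRNA AAV where the labels name a GFP AAV9, and they differ from the series description on how many mice each sample holds and whether tissue was pooled. RNA was taken from bulk tissue that held the GFP fluorescence, so infected and uninfected cells of every type were measured together.

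At the synapse, neurexins sit in the presynaptic membrane and bind, across the cleft, to neuroligins and LRRTMs in the postsynaptic membrane. Among the neuroligins, *Nlgn1* is known chiefly from excitatory synapses, *Nlgn2* from inhibitory synapses and *Nlgn3* from both, while LRRTMs act mainly at excitatory synapses, where they help to anchor glutamate receptors. Inside the cell, neuroligins bind scaffold proteins such as PSD-95 and gephyrin, neurexins bind the Cask complex, and ASH1L is a histone methyltransferase linked to active genes.

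The genes differ widely in size and position. On mm10, *Nrxn3* spans 1612 kb at chr12:88722876-90334935 on the plus strand, *Nlgn1* spans 906 kb at chr3:25426215-26332460 on the minus strand, and *Lrrtm4* spans 791 kb at chr6:80018877-80810143 on the plus strand. *Lrrtm3* (chr10:63928472-64090277, minus strand) and *Nrxn2* (chr19:6418731-6544169, plus strand) also exceeded 100 kb, so that 5 of 9 members did, beside 14.9% of the tested genes with an annotated span. The other members were compact. *Nlgn2* lies at chr11:69823122-69837784 on the minus strand, *Nlgn3* at chrX:101299168-101325963 on the plus strand and *Lrrtm1* at chr6:77242689-77257791 on the plus strand, and *Lrrtm2* spans 6.02 kb. *Lrrtm1*, *Lrrtm2* and *Lrrtm3* each lie inside an alpha-catenin gene (*Ctnna2*, *Ctnna1* and *Ctnna3*) on its opposite strand. The libraries were strand-specific, but whether reads were counted by strand is not given in the sources used here, so reads of a host gene and of the LRRTM gene within it might not be separated.

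ASH1L acts at chromatin, so the DNA just before the transcription start is shown for 4 members, a neuroligin that was called DOWN beside one that was not and the same for the LRRTMs. The sequences are the 250 bases before a RefSeq start (GRCm38.p6), each written 5′ to 3′ on the strand of its gene, with CpG sites, where DNA can be methylated, in capitals. RefSeq windows were matched for 6 members, and *Nrxn2*, *Nlgn3* and *Lrrtm2* had no entry. For *Nlgn1* the window before its internal start is given, since the one before its first start lies within annotated exons.
*Nlgn1*, internal start, chr3:26153987-26154236, minus strand: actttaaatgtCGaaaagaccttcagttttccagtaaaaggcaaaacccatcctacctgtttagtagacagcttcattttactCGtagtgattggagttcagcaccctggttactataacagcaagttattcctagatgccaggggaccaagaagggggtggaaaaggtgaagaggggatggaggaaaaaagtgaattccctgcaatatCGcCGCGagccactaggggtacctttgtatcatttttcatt
*Nlgn2*, chr11:69837785-69838034, minus strand: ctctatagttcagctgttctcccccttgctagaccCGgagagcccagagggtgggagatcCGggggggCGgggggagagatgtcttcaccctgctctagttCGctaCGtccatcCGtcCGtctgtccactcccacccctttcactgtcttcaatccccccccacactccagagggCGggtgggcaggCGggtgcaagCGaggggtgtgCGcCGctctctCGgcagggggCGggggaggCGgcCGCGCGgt
*Lrrtm1*, chr6:77242227-77242476, plus strand: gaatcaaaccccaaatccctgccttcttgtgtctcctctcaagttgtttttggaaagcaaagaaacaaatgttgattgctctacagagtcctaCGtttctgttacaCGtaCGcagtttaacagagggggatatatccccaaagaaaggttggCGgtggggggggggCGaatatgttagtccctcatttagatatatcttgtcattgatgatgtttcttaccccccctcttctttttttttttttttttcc
*Lrrtm4*, first start, chr6:80018627-80018876, plus strand: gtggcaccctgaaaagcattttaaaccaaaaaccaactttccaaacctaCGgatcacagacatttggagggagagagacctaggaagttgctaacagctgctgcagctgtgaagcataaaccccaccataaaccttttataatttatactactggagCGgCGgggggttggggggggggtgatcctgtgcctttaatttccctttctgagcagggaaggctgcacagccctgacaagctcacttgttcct
The *Nlgn2* window held 18 CpG sites, with a ratio of observed to expected CpG of 0.63. The window of *Nlgn1* held 5 CpG sites, that of *Lrrtm1* 5 and that of *Lrrtm4* 3, beside a median of 6 over 32851 windows of the same length. The other windows of the 2 DOWN genes, which lie within annotated exons and are not shown, held 9 (first start of *Nlgn1*) and 8 (second start of *Lrrtm4*). The ratio reached 0.6 in 34.0% of all windows, and among these 4 only in that of *Nlgn2*. Of 3 motifs searched on both strands, TATAAA was found in the *Lrrtm4* window alone of the 4 and in 12.4% of all windows, and neither TGACGTCA (1.55% of all windows) nor CACGTG (6.02%) was found in any of the 4.

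The samples held 14251190 and 35764874 counts in the controls and 27479339 and 20106708 in the *Ash1L* shRNA group. Counts were scaled by the trimmed mean of M-values (TMM) to a common library size, and these scaled values are called normalized counts. *Ash1l* itself had normalized counts of 5961 and 7057 in the controls and 5246 and 3345 in the shRNA samples, so both shRNA samples lay below both controls, and shRNA 2 was much the lower. Its log2 fold change was -0.60 (SE 0.22, adjusted p = 0.275, edgeR quasi-likelihood test with Benjamini-Hochberg adjustment), and the call rested on single samples. The unadjusted p of 0.036 went to 0.060 without control 1 (log2 fold change -0.71), 0.175 without control 2 (-0.48) and 0.057 without shRNA 2 (-0.31). Without shRNA 1 the log2 fold change of *Ash1l* was -0.97. The first principal component, with 64.6% of the variance, placed shRNA 2 at 56.1, shRNA 1 at 8.03 and the controls at -27.4 and -36.7. The shRNA samples thus lay further from each other on this axis than shRNA 1 lay from either control. The methods describe each sample as pooled tissue of several mice, but no source states that the samples of a group came from separate animals. A p-value therefore measures the spread between these samples, which may be technical. Against counting error alone, chi-squared per degree of freedom was 14.8 between the controls and 42.3 between the shRNA samples. The source of this spread was not tested.

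A gene was called DOWN or UP at an unadjusted p below 0.05 with a change of at least 1.2-fold. This cut-off is that of the study, which used DESeq2, but the calls here come from the edgeR quasi-likelihood test. *Nlgn1*, *Nlgn3* and *Lrrtm4* were called DOWN, each lower by close to the same amount, and no member was called UP. These 3 of 9 members stand beside 8.28% of the 16232 tested genes called DOWN and 8.61% called UP (16.9% in either direction). The log2 fold change was below 0 in 7 of 9 members, beside 50.3% of tested genes. Both shRNA samples lay below both controls in 6 of 9 members, beside 26.8% of tested genes, and above both in 1 member, beside 26.5%. The median log2 fold change was -0.21 over the members and -0.00 over all tested genes. After adjustment over all tested genes no member passed 0.05 (adjusted p from 0.260 to 0.910, edgeR quasi-likelihood test), and 1 gene in the whole table did (0.00616%), while 2746 genes had an unadjusted p below 0.05. With DESeq2, the tool of the study, 4 members were called DOWN, with *Lrrtm3* as the added one. The lowest adjusted p of a member with DESeq2 was 0.129, for *Nlgn1*, and the share of all genes it called is not given here. The number of members called DOWN was lower with either control left out and higher with either shRNA sample left out. The share of all tested genes called in those fits is not given here, so this change is not shown to concern the members.

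**Figure D1:**
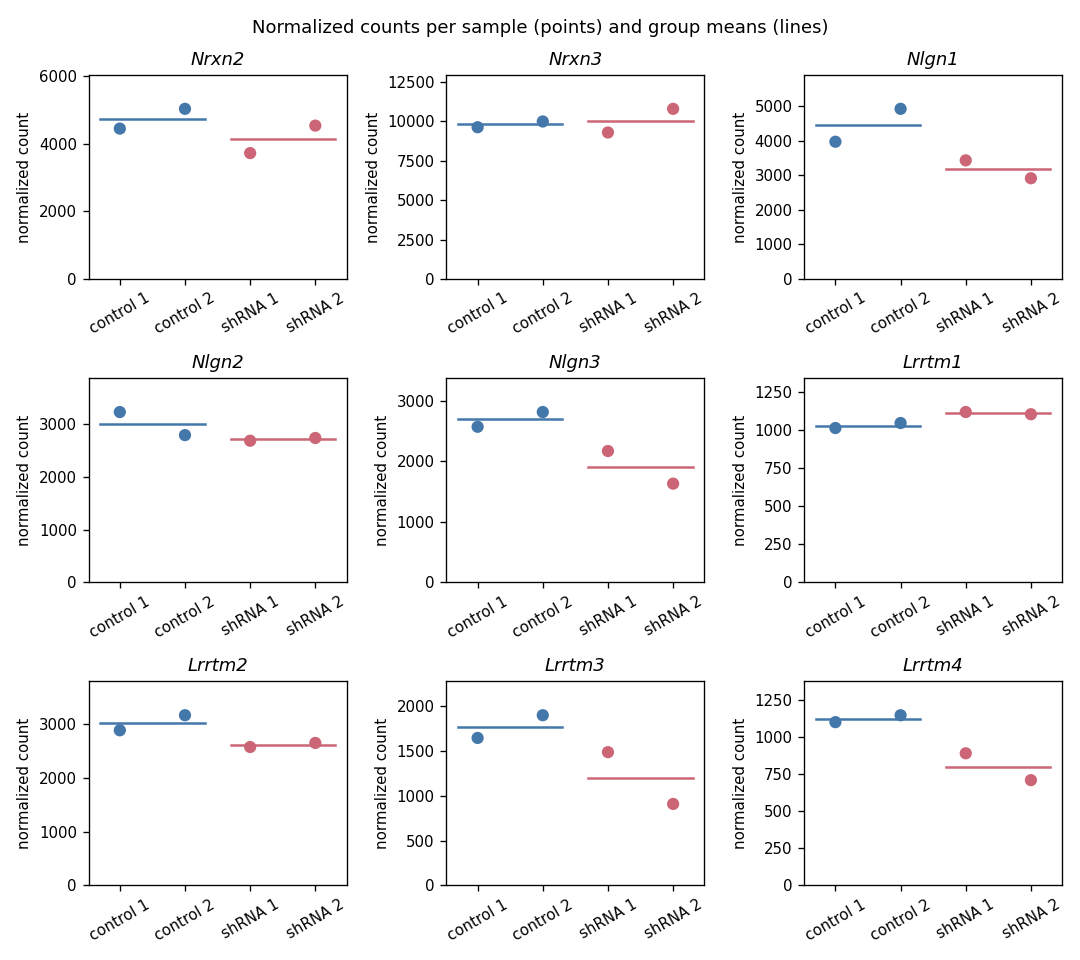
Normalized counts (y axes, from 0) of the 9 members in the 2 control samples (blue) and the 2 *Ash1L* shRNA samples (red), with group means as lines. The shRNA points of *Nlgn1*, *Nlgn3*, *Lrrtm3* and *Lrrtm4* lie below both controls, lowest in shRNA 2, and those of *Lrrtm1* lie slightly above.

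On the presynaptic side, neither neurexin was called. *Nrxn2*, a receptor for neuroligins and LRRTMs, had normalized counts of 4445 and 5029 in the controls and 3721 and 4533 in the shRNA samples. The groups overlapped, since shRNA 2 lay above control 1 and only shRNA 1 lay below both controls. The log2 fold change was -0.20 (SE 0.14, adjusted p = 0.488, edgeR quasi-likelihood test). It was -0.35 without shRNA 2, with an unadjusted p of 0.031, but -0.069 without shRNA 1 and -0.11 without control 2. *Nrxn3*, the most highly expressed of the members, had normalized counts of 9608 and 9973 in the controls and 9274 and 10773 in the shRNA samples. Its shRNA samples lay on either side of the controls, and the log2 fold change was 0.034 (SE 0.12, adjusted p = 0.910, edgeR quasi-likelihood test). Its sign was not stable, at -0.076 without shRNA 2 and -0.036 with a correction for GC content. The sum of the normalized counts of the 2 neurexins was 14053 and 15001 in the controls and 12995 and 15306 in the shRNA samples, with the groups overlapping.

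On the postsynaptic side, 2 of the 3 neuroligins were called DOWN. *Nlgn1*, the neuroligin of excitatory synapses, had normalized counts of 3971 and 4922 in the controls and 3432 and 2914 in the shRNA samples. Both shRNA samples were below both controls, and control 2 was well above control 1. The group means were 4447 ± 673 and 3173 ± 366 (SD, n = 2 each), a level 28.7% lower with a log2 fold change of -0.49 (SE 0.15, unadjusted p = 0.017, adjusted p = 0.260, edgeR quasi-likelihood test). Without control 2, the log2 fold change of *Nlgn1* was -0.33 and the unadjusted p was 0.131.

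*Nlgn3*, which serves both excitatory and inhibitory synapses, had normalized counts of 2575 and 2819 in the controls and 2174 and 1633 in the shRNA samples. Both shRNA samples were again below both controls, shRNA 2 by the wider margin. The means were 2697 ± 173 and 1903 ± 382 (SD, n = 2 each), a level 29.4% lower with a log2 fold change of -0.50 (SE 0.16, unadjusted p = 0.019, adjusted p = 0.260, edgeR quasi-likelihood test). Without control 2 it was -0.44 with an unadjusted p of 0.097, and it was -0.31 without shRNA 2 and -0.73 without shRNA 1. An annotated processed transcript, *Gm21986*, overlaps *Nlgn3* on the same strand, so reads from the shared part could belong to either.

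*Nlgn2*, the neuroligin of inhibitory synapses, had normalized counts of 3230 and 2791 in the controls and 2685 and 2737 in the shRNA samples. Both shRNA samples lay just below control 2, and control 1 stood above the other 3 samples. The means were 3011 ± 310 and 2711 ± 36.8 (SD, n = 2 each), with a log2 fold change of -0.15 (SE 0.12, adjusted p = 0.544, edgeR quasi-likelihood test). The log2 fold change was -0.032 without control 1 and -0.26 without control 2.

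The LRRTMs, which are postsynaptic ligands of neurexins, did not move as a block. *Lrrtm4*, which also binds heparan sulfate proteoglycans such as *Gpc4*, had normalized counts of 1098 and 1144 in the controls and 888 and 708 in the shRNA samples. The controls were close together and both shRNA samples were lower, shRNA 2 the more so. The means were 1121 ± 32.9 and 798 ± 128 (SD, n = 2 each), a level 28.8% lower with a log2 fold change of -0.49 (SE 0.15, unadjusted p = 0.016, adjusted p = 0.260, edgeR quasi-likelihood test). The call was lost without either control, at an unadjusted p of 0.059 without control 1 and 0.080 without control 2. An antisense transcript, *Gm4409*, overlaps the start of *Lrrtm4*.

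*Lrrtm3*, which binds neurexins at excitatory synapses, had the lowest log2 fold change of the 9 members but was not called. Its normalized counts were 1642 and 1895 in the controls and 1484 and 907 in the shRNA samples. Both shRNA samples were below both controls, but shRNA 1 only by a little, and the SE was the widest among the members. The log2 fold change was -0.56 (SE 0.24, unadjusted p = 0.056, adjusted p = 0.304, edgeR quasi-likelihood test). It was -0.97 without shRNA 1 and -0.25 without shRNA 2. With DESeq2 in place of edgeR the unadjusted p was 0.023, so the call of *Lrrtm3* depended on the tool.

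*Lrrtm2* (chr18:35209003-35215024, minus strand), which helps to hold AMPA-type glutamate receptors at synapses, had normalized counts of 2888 and 3169 in the controls and 2577 and 2653 in the shRNA samples. Both shRNA samples were below both controls and close to each other, with a log2 fold change of -0.21 (SE 0.11, adjusted p = 0.368, edgeR quasi-likelihood test). *Lrrtm1*, another excitatory LRRTM, was the single member in which both shRNA samples were above both controls. Its normalized counts were 1012 and 1044 in the controls and 1117 and 1102 in the shRNA samples, all 4 in a narrow range. The log2 fold change was 0.11 (SE 0.11, adjusted p = 0.648, edgeR quasi-likelihood test). The lowest read count of any member in any sample was 587, for *Lrrtm1* in control 1, which gives a counting error of 4.13%, smaller than each of the DOWN differences.

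**Figure D2:**
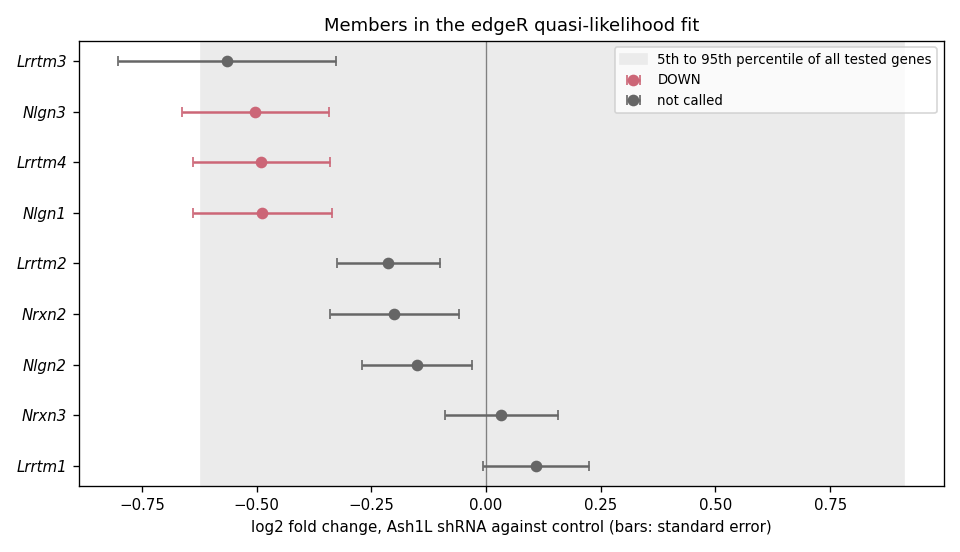
Log2 fold change of each member (*Ash1L* shRNA against control, x axis) with its standard error as bars, DOWN calls in red. The 3 DOWN members lie at -0.49 to -0.50, *Lrrtm3* at -0.56 with a wider bar, and *Nrxn3* and *Lrrtm1* just above 0, while the grey band marks the 5th to 95th percentile over all tested genes (-0.62 to 0.91).

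The members differed in how far each shRNA sample lay from the controls. Relative to the control mean, the log2 deviation of *Nlgn1* was -0.37 in shRNA 1 and -0.60 in shRNA 2. That of *Nlgn3* was -0.31 and -0.72, that of *Lrrtm4* -0.34 and -0.66, and that of *Lrrtm3* -0.25 and -0.96. These 4 deviated further in shRNA 2, whereas *Nlgn2* (-0.16 and -0.13), *Lrrtm2* (-0.23 and -0.19) and *Lrrtm1* (0.12 and 0.10) deviated about equally in both. *Nrxn2* went the other way, at -0.35 in shRNA 1 and -0.061 in shRNA 2, and *Nrxn3* took opposite signs, at -0.078 and 0.14. In all, 5 of 9 members deviated further in shRNA 2, beside 69.9% of all tested genes. By the root-mean-square difference of these deviations over the 4 samples, *Nlgn3* and *Lrrtm4* were nearest to each other (0.041 on the log2 scale). The nearest member to *Nlgn1* was *Nlgn3* (0.092), and *Nrxn2* and *Lrrtm2* were nearest to each other (0.087). *Lrrtm1* was nearest to *Nrxn3* (0.10).

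Levels between genes were compared per length, as RPKM, which divides the normalized count by exon length and library size. In the controls *Nrxn3* was highest at 31.9 RPKM, followed by *Nlgn2* at 21.4 and *Lrrtm2* at 20.7, which overlapped each other. *Lrrtm3* came next at 17.1 RPKM. *Nrxn2* at 14.1, *Lrrtm1* at 13.9 and *Nlgn1* at 13.6 could not be ordered, since their control samples overlapped, and *Nlgn1* overlapped *Nlgn3* as well, which had 11.4 and 12.5 RPKM in the controls. *Lrrtm4* was lowest at 7.50 RPKM, below *Nlgn3* without overlap. In the shRNA samples *Lrrtm1* was at 15.0 RPKM and *Lrrtm3* at 11.6, so that they exchanged places in the order. With the longest annotated transcript in place of all exons as length, only 3 of 9 members kept their rank, and *Nrxn2* moved from the fifth to the second place at 29.2 RPKM.

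Ratios of members within a family do not depend on library scaling, so 10 of them were computed in each sample. With 2 samples against 2, an exact permutation test cannot give a two-sided p below 0.333, and over the 10 ratios the lowest adjusted value was 0.667. A ratio whose groups do not overlap always gets this lowest p. Single-gene levels did not overlap between the groups in 53.2% of all tested genes, and the share over ratios of other genes was not computed. The log2 ratio of *Lrrtm1* to *Lrrtm4* was -0.12 and -0.13 in the controls and 0.33 and 0.64 in the shRNA samples. *Lrrtm1* thus went from fewer counts than *Lrrtm4* in both controls to more in both shRNA samples, a difference of 0.61 (exact permutation p = 0.333). These counts were not divided by length, so the change of sign is no exchange of levels. Per length *Lrrtm1* was already the higher in the controls, at 13.9 RPKM beside 7.50 for *Lrrtm4*. The ratio of *Lrrtm1* to *Lrrtm3* was -0.70 and -0.86 in the controls and -0.41 and 0.28 in the shRNA samples, again without overlap. As a share of the counts of the 4 LRRTMs, *Lrrtm1* made up 15.2% and 14.4% in the controls and 18.4% and 20.5% in the shRNA samples. The summed normalized counts of the LRRTMs were 6640 and 7253 in the controls and 6066 and 5370 in the shRNA samples, lower in both.

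Among the neuroligins the groups overlapped in every ratio. Counts were again not divided by length, and per length *Nlgn2* was higher than *Nlgn1* in the controls, at 21.4 beside 13.6 RPKM. The log2 ratio of *Nlgn1* to *Nlgn2*, the excitatory against the inhibitory member, was 0.30 and 0.82 in the controls and 0.35 and 0.091 in the shRNA samples. The groups overlapped, because control 1 had a ratio below that of shRNA 1, and the difference of -0.34 (exact permutation p = 0.667) was -0.076 without control 2 and -0.60 without control 1. The DOWN call of *Nlgn1* and the absence of a call for *Nlgn2* are therefore not shown to differ. The ratio of *Nlgn1* to *Nlgn3* was 0.63 and 0.80 in the controls and 0.66 and 0.84 in the shRNA samples, a difference of 0.033 (exact permutation p = 0.667), whose sign changed when control 1 or shRNA 2 was left out (-0.057 and -0.055). The summed neuroligin counts were 9775 and 10533 in the controls and 8291 and 7284 in the shRNA samples, without overlap. For the neurexins, the log2 ratio of *Nrxn2* to *Nrxn3* was -1.11 and -0.99 in the controls and -1.32 and -1.25 in the shRNA samples (exact permutation p = 0.333).

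**Figure D3:**
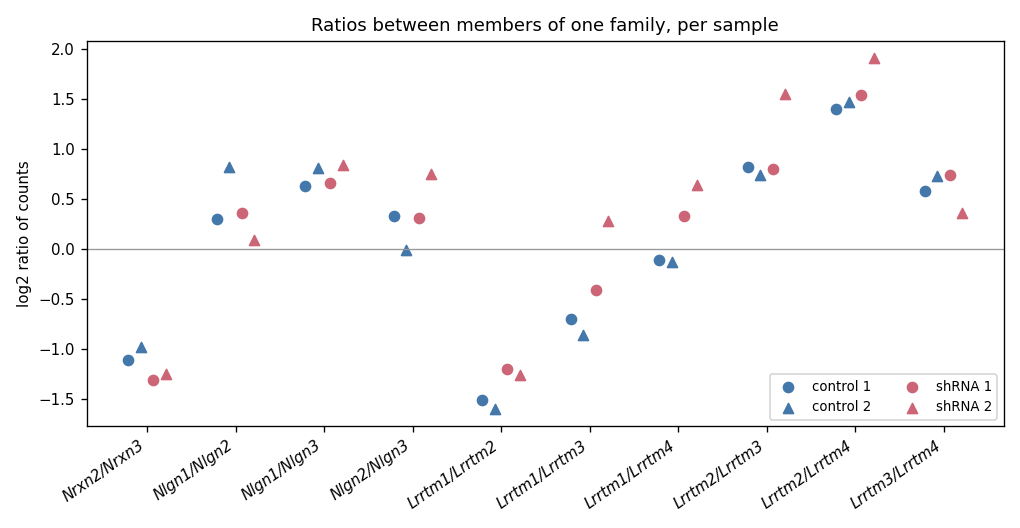
Log2 ratio of counts between members of a family in each sample (y axis), controls in blue and *Ash1L* shRNA samples in red, with circles for replicate 1 and triangles for replicate 2. The groups separate in the 3 ratios with *Lrrtm1*, in *Lrrtm2* to *Lrrtm4* and in *Nrxn2* to *Nrxn3*, and overlap in all 3 neuroligin ratios.

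In bulk tissue, fewer cells of a type and less RNA per cell cannot be told apart. By NeuN staining of infected PFC slices, the study reported no significant neuron loss. Numbers of cells in the sequenced tissue were not tested. All 6 excitatory neuron markers were lower in the shRNA samples and 3 were called DOWN, with summed normalized counts of 66966 and 78666 in the controls and 61745 and 49740 in the shRNA samples. Of 6 pan-neuronal markers 5 were lower and 0 called, and their sum was 157331 and 159645 in the controls and 145334 and 126123 in the shRNA samples. Both sums were thus lower in both shRNA samples, and lowest in shRNA 2. Divided by the pan-neuronal sum, *Nlgn1* (a log2 difference of -0.26), *Nlgn3* (-0.29), *Lrrtm3* (-0.38) and *Lrrtm4* (-0.27) were still below both controls in both shRNA samples. Divided by the excitatory sum, these 4 members were at -0.094, -0.13, -0.22 and -0.11, without overlap but by narrow gaps. For *Nlgn1* the closest log2 values were -4.08 (control 1) and -4.09 (shRNA 2). For the others, control 2 and shRNA 1 were closest. They were at -4.80 and -4.83 for *Nlgn3*, -5.375 and -5.379 for *Lrrtm3* and -6.10 and -6.12 for *Lrrtm4*. The sign of all 4 turned with the astrocyte sum as the scale (0.20, 0.17, 0.082 and 0.19). *Nlgn2* (0.080 and 0.24), *Nrxn2* (0.024 and 0.19) and *Lrrtm2* (0.017 and 0.18) changed sign on the pan-neuronal and excitatory scales. On these 2 scales *Lrrtm1* was higher by 0.34 and 0.50 and *Nrxn3* by 0.26 and 0.42. No test was run on these scaled values.

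**Figure D4:**
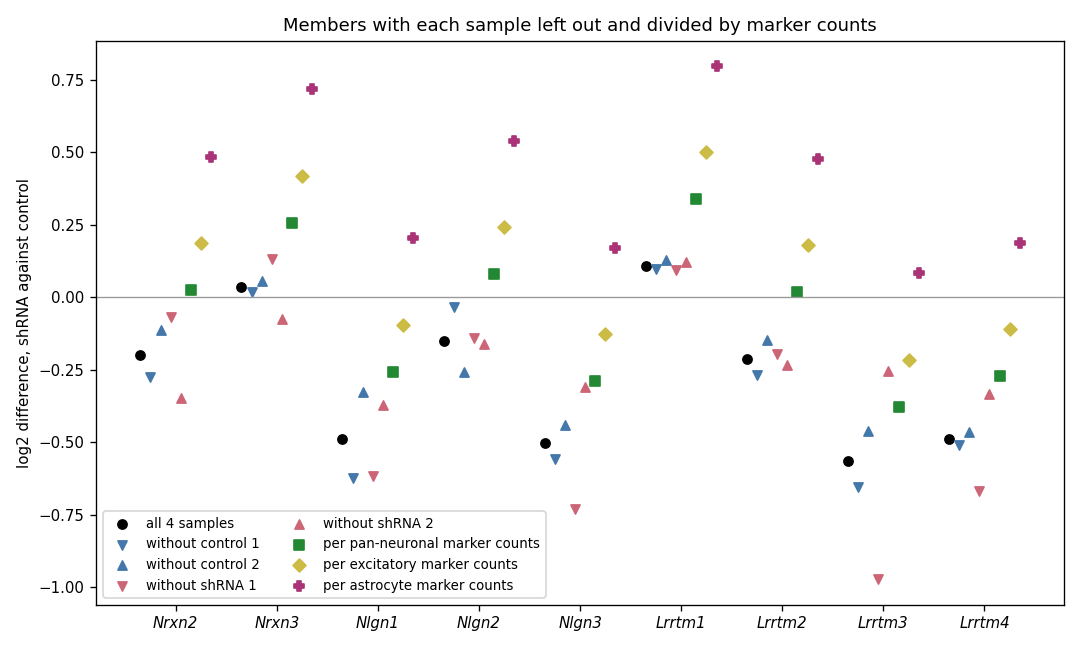
Log2 difference of each member (*Ash1L* shRNA against control, y axis) with all 4 samples (black), with each sample left out (triangles) and divided by the summed counts of pan-neuronal (green squares), excitatory neuron (yellow diamonds) or astrocyte markers (purple crosses). *Nlgn1*, *Nlgn3*, *Lrrtm3* and *Lrrtm4* lie below 0 with each sample left out and on both neuronal scales and above 0 on the astrocyte scale, and *Lrrtm1* lies above 0 in all of these.

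Other cell types moved as well. Of 6 astrocyte markers 4 were called DOWN, and the sum of all 6 was 53634 and 53835 in the controls and 38271 and 29130 in the shRNA samples. The list was split. The log2 fold change was -0.94 for *Slc1a3*, -0.59 for *Aldh1l1*, -0.99 for *Gja1* and -1.18 for *Aldoc*, but 0.11 for *Aqp4* and 0.0007 for *Gfap*. A scale from this sum therefore depends on which astrocyte genes are listed. The interneuron list had 2 of 6 called DOWN, and its sum was 16348 and 14957 in the controls and 13613 and 14195 in the shRNA samples. The oligodendrocyte and endothelial sums overlapped between the groups, with 0 markers called. Of 4 oligodendrocyte precursor markers 1 (*Pdgfra*) was called UP, and their sum overlapped between the groups, at 4662 and 4642 in the controls and 6044 and 4499 in the shRNA samples. Of 6 microglial markers 0 were called, and the microglial sum was 16939 in shRNA 1 and 7254 in shRNA 2. Of 6 striatal neuron markers 2 were called UP, with a sum of 3094 and 2972 in the controls and 3357 and 5988 in the shRNA samples. The 4 lymphocyte markers in the files were all called DOWN, from a sum of 150 and 259 to 25.8 and 22.3, and of 3 erythrocyte markers 1 was called DOWN and 1 (*Hba-a1*) was at 0 in every sample. Divided by the astrocyte sum, all 9 members were higher in the shRNA group. *Nlgn3* (0.17) and *Lrrtm4* (0.19) then lay above both controls in both shRNA samples, and *Nlgn1* (0.20) and *Lrrtm3* (0.082) overlapped them, so the direction of the DOWN members depended on the marker list used as scale. The part of the other cell types in the values of the adhesion genes was not tested.

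Beyond the 9 members, 53 other genes were listed, and all 53 were tested. The list held 18 other synaptic organizers and 3 host genes, so it reached beyond direct partners of the members. Of all 53, 14 (26.4%) were called DOWN and 0 UP, beside the 8.28% and 8.61% of all tested genes. The median log2 fold change over the 53 was -0.16. The number of DOWN calls was lower without control 1, control 2 or shRNA 2 and higher without shRNA 1, so it depended on each sample. The share of all tested genes called in those fits is not given here. With DESeq2, for which this share is not given either, 16 genes were called DOWN and 1 UP. No UP call was made without control 1 or without control 2, but UP calls were made without shRNA 1 and without shRNA 2. The adjusted p of the called genes was 0.260 to 0.295 (edgeR quasi-likelihood test with Benjamini-Hochberg adjustment).

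By role, 3 of 16 ligands were called DOWN. The log2 fold change was below 0 in 9 ligands and above 0 in 7, beside 50.3% of tested genes below 0. It ranged from -0.73 to 0.89, so the ligands did not fall as a group. *Dag1*, the dystroglycan that binds neurexins, had normalized counts of 2149 and 2540 in the controls and 1944 and 1690 in the shRNA samples, a log2 fold change of -0.37. *Adgrl1*, a latrophilin receptor of neurexins and teneurins, had 16867 and 16627 in the controls and 13206 and 13612 in the shRNA samples, a log2 fold change of -0.32. In both, the shRNA samples lay below the controls without overlap. Among 18 other synaptic organizers, 7 were called DOWN. *Il1rapl1*, a postsynaptic ligand of receptor tyrosine phosphatases, had 829 and 865 in the controls and 686 and 521 in the shRNA samples (log2 fold change -0.49). *Slitrk3*, an organizer of inhibitory synapses, had 1463 and 1504 in the controls and 1235 and 887 in the shRNA samples (log2 fold change -0.48). As in *Nlgn3* and *Lrrtm4*, shRNA 2 was the lowest sample in both.

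Of the 9 proteins that bind neurexins or neuroligins inside the cell, 4 were called DOWN. *Lin7b*, a part of the Cask complex, had 826 and 1026 in the controls and 682 and 446 in the shRNA samples (log2 fold change -0.72). Both shRNA samples lay below both controls, and shRNA 2 was the lower. None of the 4 inhibitors and proteases of neuroligins and none of the 3 splicing regulators of neurexins was called.

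None of the 3 alpha-catenin genes that contain an LRRTM was called either. *Ctnna3*, around *Lrrtm3*, had 55.1 and 70.7 normalized counts in the controls and 73.7 and 151 in the shRNA samples (log2 fold change 0.81, adjusted p = 0.359, edgeR quasi-likelihood test), the opposite direction from *Lrrtm3*. *Ctnna2*, around *Lrrtm1*, had 5496 and 6099 in the controls and 5346 and 4261 in the shRNA samples, a log2 fold change of -0.27 beside 0.11 for *Lrrtm1*. *Ctnna1*, around *Lrrtm2*, had 1825 and 1709 in the controls and 1906 and 2034 in the shRNA samples, a log2 fold change of 0.16 beside -0.21 for *Lrrtm2*. In all 3 pairs the host gene and the LRRTM differed in sign.

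**Figure D5:**
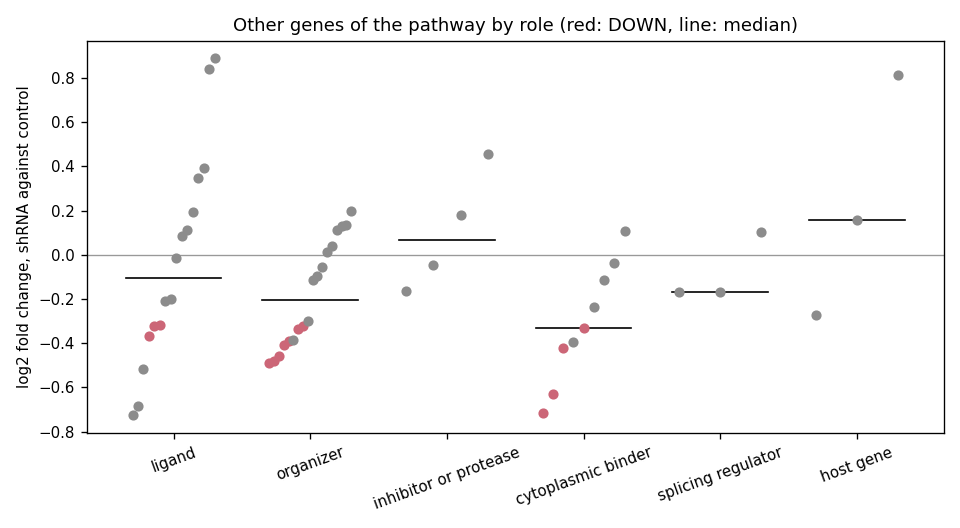
Log2 fold change (*Ash1L* shRNA against control, y axis) of the 53 other listed genes, grouped by role. DOWN calls are red, other genes are grey, and a line marks the median of each role. The 14 DOWN calls lie among ligands, organizers and cytoplasmic binders, and no gene was called UP.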

How the data were processed

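Total RNA was extracted from PFC tissue of 2 control and 2 *Ash1L* shRNA AAV samples, and stranded libraries were made after removal of ribosomal RNA. The deposited values were raw read counts per gene symbol, made by the authors with STAR on mm10 and featureCounts, although the labels also name Cutadapt and TopHat2. Whether reads were counted by strand is not given in the sources used here. The members and gene lists were chosen with earlier results of these data known.

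All genes kept by filterByExpr (16232) were fitted with edgeR 4.0.16 (R 4.3.3), with TMM scaling and robust quasi-likelihood tests over all 4 samples without covariates. The biological coefficient of variation was 0.173, and Benjamini-Hochberg adjustment covered all tested genes. The SE was derived from the F statistic. Values of n are 2 in each group. Log2 deviations used a pseudocount of 1. Exon lengths, spans and strands came from GENCODE vM21, in which 93.0% of symbols were found, and *Adgrl1* was matched to its older symbol. Values were printed for every member, for the 2 largest falls and rises among called genes in each role, and for the 3 host genes. A gene that this rule names is not reported here. The scripts were tested on simulated data. Alternatives were DESeq2 1.42.0, a likelihood ratio test, other scalings and filters, length and GC offsets, a replicate block, a 1.5-fold limit and leaving out each sample. A crossed block and scaling to neuronal and astrocyte markers were added after seeing the data.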

Additional observations from a re-analysis of the deposited data

How the results depend on the processing

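When 1 sample was dropped, the number of members called DOWN ranged from 0 to 4 and that of UP calls stayed at 0, the number of other pathway genes called DOWN ranged from 0 to 24 and that called UP from 0 to 5. A 1.5-fold limit left 0 members and 2 other genes DOWN. DESeq2 called 4 members and 16 other genes DOWN and 1 other gene UP. With the replicate number as a block, 3 members were called DOWN (*Nlgn1*, *Nlgn3* and *Lrrtm4*), 7 other genes DOWN and 1 UP. Samples of the same number correlated at -0.11 in their deviations, so the numbers were not taken as pairs, and the crossed pairing, tried after seeing the data, gave 4 members and 20 other genes DOWN. *Nrxn2* had a log2 difference of 0.024 and 0.19, *Nlgn2* of 0.080 and 0.24 and *Lrrtm2* of 0.017 and 0.18 when scaled to pan-neuronal and excitatory markers, opposite in sign to their fitted values. Scaled to astrocyte markers, *Nrxn2* was at 0.48, *Nlgn1* at 0.20, *Nlgn2* at 0.54, *Nlgn3* at 0.17, *Lrrtm2* at 0.48, *Lrrtm3* at 0.082 and *Lrrtm4* at 0.19, all reversed. *Nrxn3* was at -0.036 with a GC offset and ranged from -0.076 to 0.13 with a sample left out. The log2 ratio of *Nlgn1* to *Nlgn3* ranged from -0.057 to 0.12 with a sample left out, and that of *Lrrtm3* to *Lrrtm4* from -0.30 to 0.086. *Lrrtm3* passed an unadjusted p of 0.05 with DESeq2 (0.023), the likelihood ratio test (0.034), the length offset (0.041), the GC offset (0.033) and the crossed block (0.0070). *Ash1l* missed it with the length offset (0.051). With the longest transcript as length, 3 members kept their rank in RPKM. The cause of these changes was not tested. Leaving out a sample leaves 1 sample in a group, which is then assumed to vary like the other group. Counting error was at most 4.13% per member and sample, and covers counting alone.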
